A study of Mus musculus with 12 samples.

Results

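The data compared here are the changes that loss of *Cox6a2* went with in one muscle, the diaphragm, set against the changes in another, the gastrocnemius. For each gene the value is the interaction, that is the KO minus WT difference in diaphragm minus the KO minus WT difference in gastrocnemius, on the log2 scale, so that an interaction of 1 means that the ratio of KO to WT was 2-fold larger in diaphragm. It was computed for 19938 genes, each represented by the brightest of its probe sets with 1 gene symbol, out of 35556 probe sets on the array. The interaction passed the test for 2958 of them (14.8%, limma, adjusted p under 0.05). The groups were KO diaphragm, the arrays labelled WT diaphragm, KO gastrocnemius and WT gastrocnemius, with 3 arrays each. The KO mice lacked *Cox6a2* in all tissues, and the WT mice were purchased C57BL/6J animals matched for age and sex that were not stated to be littermates of the KO mice. All were males of 10 to 12 weeks on a regular diet, and the labels give C57Bl6 as the strain of every sample. Whether a diaphragm and a gastrocnemius sample came from the same mouse is not given, and no pooling of animals is mentioned.

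*Cox6a2* encodes the heart and skeletal muscle form of a small subunit of cytochrome *c* oxidase, the last complex of the mitochondrial respiratory chain. The diaphragm contracts with every breath and is rich in oxidative fibers, which burn fatty acids and carry the slow or the IIA and IIX myosins. The gastrocnemius of the mouse is mostly made of fast glycolytic IIB fibers, which depend on glycogen, on parvalbumin and on the fast isoforms of the sarcomere. The diaphragm is also covered by mesothelium on both faces, and muscles of the limbs keep the *Hox* genes of their position along the body.

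The deleted gene was measured first. *Cox6a2* had log2 signals of 7.02, 6.71 and 6.94 in KO diaphragm, against 11.84, 11.75 and 12.06 on the arrays labelled WT diaphragm. The corresponding signals were 6.71, 7.18 and 6.91 in KO gastrocnemius, against 11.84, 11.65 and 11.73 in WT gastrocnemius. The loss was of like size in both muscles, and the interaction of -0.19 was not called (SE 0.18, 95% interval -0.57 to 0.20, adjusted p = 0.559).

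The labelled muscle was then set against its markers. *Hoxc10*, a gene of hindlimb position, had signals of 4.53, 3.82 and 4.18 in KO diaphragm and 8.62, 8.75 and 8.68 on the arrays labelled WT diaphragm. It had signals of 8.44, 8.52 and 8.63 in KO gastrocnemius and 8.42, 8.36 and 8.55 in WT gastrocnemius, so that the arrays labelled WT diaphragm lay with the hindlimb muscle. Of 13 genes of hindlimb position 10 were called lower for KO in diaphragm, against 11.2% of all genes. In gastrocnemius 0 were called between the genotypes, against 0.592% of all genes. The mean log2 signal of these 13 genes was 5.41 to 5.55 in KO diaphragm, 6.71 to 6.87 on the arrays labelled WT diaphragm, 6.71 to 6.78 in KO gastrocnemius and 6.73 to 6.79 in WT gastrocnemius. Over genes, arrays labelled WT diaphragm correlated at 0.963 to 0.975 with KO diaphragm and at 0.989 to 0.992 with WT gastrocnemius, given as a description only. Every direction given below for the diaphragm, and therefore for the interaction, is drawn from these arrays. For the genes of the interaction, a difference between muscles and an effect of the deletion cannot be told apart by these labels.

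Of the 2958 genes, 1747 had a higher change in diaphragm than in gastrocnemius (8.76% of genes) and 1211 had a lower one (6.07%). The interaction was larger than 1 in size for 891 genes, of which 599 were above 1 and 292 below -1. KO minus WT was called for 5496 genes in diaphragm (27.6%), 3258 of them higher (16.3%) and 2238 lower (11.2%), and for 118 genes in gastrocnemius (0.592%), 81 of them higher (0.406%) and 37 lower (0.186%). The split between higher and lower interactions depended on the scaling of the arrays. As deposited, 59.1% of the called interactions were higher, whereas after centring each array on its median 34.8% were, with 1225 higher and 2291 lower, and the median interaction of all genes moved to -0.13 from -0.00197 as deposited. The array medians lay between 6.15 and 6.19 in KO diaphragm, between 6.08 and 6.11 on the arrays labelled WT diaphragm, between 6.04 and 6.05 in KO gastrocnemius and between 6.06 and 6.15 in WT gastrocnemius.

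Most interactions came from genes that were called in one muscle. The diaphragm alone was called for 2663 genes, most of the interaction genes. For 1906 of these the 95% interval of the change in gastrocnemius lay wholly within 0.5 log2 units of 0, so that a change of that size in gastrocnemius was outside the interval. The gastrocnemius alone was called for 33 genes, of which 29 had an interval in diaphragm within the same bounds. Both muscles were called, in opposite directions, for 15 genes, and both in the same direction but by unequal amounts for 6. In 241 genes the interaction was called with neither muscle passing on its own. Conversely, 2812 of the 5496 genes called in diaphragm and 64 of the 118 called in gastrocnemius had no called interaction. Of the 63 genes called in both muscles, 48 changed the same way, and for 42 of these 48 no difference between the muscles was called.

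**Figure D1:**
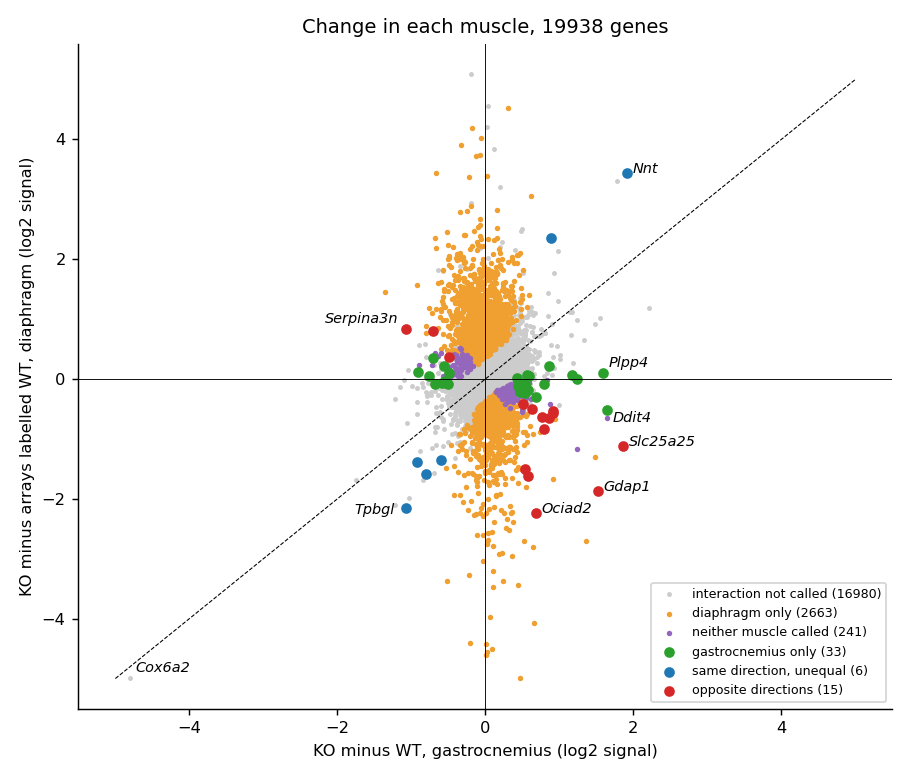
KO minus WT in gastrocnemius (horizontal axis) against KO minus the arrays labelled WT in diaphragm (vertical axis), both as log2 signal differences, for 19938 genes; the dashed line marks equal changes, and colours mark the classes of the interaction genes. The 2663 genes called in diaphragm only form a vertical band, the 15 genes of opposite direction lie in the upper left and lower right, and *Cox6a2* lies near the dashed line.

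The interaction can also be written as the difference between the muscles in KO mice minus that in WT mice, which puts the KO diaphragm against KO gastrocnemius without any array labelled WT. Diaphragm and gastrocnemius differed for 5767 genes in KO mice (28.9%) and for 92 genes between the arrays labelled WT (0.461%). Among the 1747 genes with a higher interaction, 1668 were called between the KO muscles (95.5%) and 14 between the WT arrays (0.801%). Among the 1211 with a lower interaction, 1061 (87.6%) and 32 (2.64%) were called. The shares of all genes were 28.9% and 0.461%. In the higher group the median difference between muscles was 0.77 in KO mice and -0.07 in WT mice, and in the lower group it was -0.61 in KO mice and 0.11 in WT mice. Because the genes were chosen by the interaction, which is made of these differences, the counts and medians describe the choice and test nothing.

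A single group often accounted for the pattern. The 3 KO diaphragm arrays lay all above or all below the other 9 arrays for 2338 of the 2958 interaction genes (79.0%), 1448 above and 890 below, against 23.4% of all genes. The arrays labelled WT diaphragm stood apart in this way for 242 interaction genes (8.18%, against 3.62% of all genes), KO gastrocnemius for 328 (11.1%, against 5.24%) and WT gastrocnemius for 69 (2.33%, against 3.13%). The same arrays made the calls, so these shares describe them and test nothing. The mean of the arrays labelled WT diaphragm lay nearer to the gastrocnemius mean than to that of KO diaphragm for 2861 interaction genes (96.7%), against 69.9% of all genes.

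**Figure D2:**
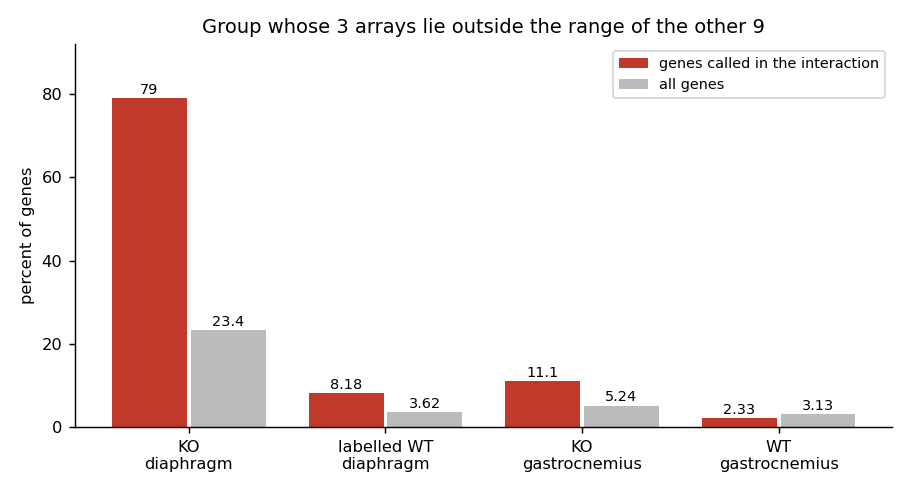
Percent of genes (vertical axis, from 0) for which all 3 arrays of a group lay above or below all of the other 9 arrays, by group (horizontal axis); red bars are the 2958 genes called in the interaction and grey bars all 19938 genes. The KO diaphragm bar of the interaction genes, at 79.0%, is higher than the bars of the other 3 groups, which lie between 2.33% and 11.1%.

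Genes that changed in opposite directions in the muscles are described first. In 12 of the 15 genes KO was lower in diaphragm and higher in gastrocnemius. In all 15 genes the KO and WT arrays did not overlap in either muscle, but the same arrays made the calls, so this tests nothing. How many of all genes share this trait was not counted. The gastrocnemius calls behind this class rested on few arrays. The class held 6, 9 and 2 genes without KO gastrocnemius replicates 1, 2 and 3, and 2 and 9 genes without WT gastrocnemius replicates 1 and 2. Of the 15 genes themselves 5, 5 and 2 stayed in the class without KO gastrocnemius replicates 1, 2 and 3, and 2, 5 and 9 without WT gastrocnemius replicates 1, 2 and 3. With each muscle fitted alone 6 of the 15 stayed and without moderation 1 did. When the arrays labelled WT diaphragm were left out, an alternative chosen after seeing the data, 8 of the 15 were still called in gastrocnemius.

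*Gdap1*, which encodes a protein of the outer mitochondrial membrane that takes part in mitochondrial fission, had the largest interaction of this class. Its signals were 4.45, 3.88 and 3.95 in KO diaphragm and 5.76, 6.35 and 5.76 on the arrays labelled WT diaphragm. In gastrocnemius they were 7.67, 7.13 and 7.52 in KO mice and 5.76, 5.97 and 6.06 in WT mice. The WT arrays of both muscles lay together, with KO below them in diaphragm and above them in gastrocnemius. The change was -1.87 in diaphragm and 1.51 in gastrocnemius, with an interaction of -3.38 (SE 0.26, adjusted p = 1.68e-06).

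*Slc25a25* encodes a calcium-regulated carrier that exchanges ATP-Mg for phosphate across the inner mitochondrial membrane. It had signals of 7.87, 7.31 and 7.89 in KO diaphragm, against 8.38, 9.24 and 8.82 on the arrays labelled WT diaphragm. It had 9.24, 10.14 and 10.16 in KO gastrocnemius, against 7.27, 8.75 and 7.94 in WT gastrocnemius. The spread within groups was wide, and the interaction of -2.98 had a SE of 0.47 (adjusted p = 0.000651; diaphragm -1.13, gastrocnemius 1.86). Unlike for *Gdap1*, the KO diaphragm arrays overlapped those of WT gastrocnemius. *Ociad2*, a gene of a mitochondrial and endosomal protein, had signals of 6.48, 6.55 and 6.63 in KO diaphragm and 8.71, 8.95 and 8.70 on the arrays labelled WT diaphragm. In gastrocnemius the signals were 9.55, 9.29 and 9.77 in KO mice and 8.81, 8.77 and 8.99 in WT mice, and the interaction was -2.91 (SE 0.17, adjusted p = 1.13e-07). The diaphragm part, -2.23, was larger than the gastrocnemius part, 0.68.

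*Slc37a4*, *Ampd1* and *Ppp1r3c* showed the same orientation. *Slc37a4*, the transporter that brings glucose 6-phosphate into the endoplasmic reticulum, had signals of 8.14, 7.90 and 8.17 in KO diaphragm and 9.67, 9.72 and 9.68 on the arrays labelled WT diaphragm, with 9.98, 9.83 and 10.13 in KO gastrocnemius and 9.36, 9.34 and 9.51 in WT gastrocnemius. Its interaction was -2.19 (SE 0.14, adjusted p = 3.55e-07). *Ampd1*, the muscle AMP deaminase, had signals of 10.83, 10.64 and 10.96 in KO diaphragm and 12.26, 12.40 and 12.27 on the arrays labelled WT diaphragm, with 12.45, 12.37 and 12.52 in KO gastrocnemius and 11.92, 11.75 and 12.06 in WT gastrocnemius. The interaction of *Ampd1* was -2.04 (SE 0.15, adjusted p = 9.44e-07). In both genes the KO diaphragm arrays lay below all others and KO gastrocnemius had the highest mean, by less than the distance in diaphragm. For *Ampd1* the KO gastrocnemius range overlapped that of the arrays labelled WT diaphragm. Its gastrocnemius call was lost after quantile normalization and without the arrays labelled WT diaphragm (adjusted p = 0.0586, limma). The gastrocnemius call of *Slc37a4* was also lost without these arrays (adjusted p = 0.0509, limma). *Ppp1r3c*, which targets protein phosphatase 1 to glycogen, had signals of 10.67, 10.32 and 10.09 in KO diaphragm and 10.75, 11.17 and 10.86 on the arrays labelled WT diaphragm, with 11.01, 11.25 and 11.38 in KO gastrocnemius and 10.13, 10.52 and 10.24 in WT gastrocnemius. Here no group stood apart from the other 9 arrays, and the interaction was -1.48 (SE 0.22, adjusted p = 0.000461).

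The other genes lower in KO diaphragm and higher in KO gastrocnemius were *Map2k6*, a kinase that activates p38 (-0.83 in diaphragm and 0.79 in gastrocnemius), the adhesion gene *Ctnna3*, which encodes an alpha-catenin (-0.65 and 0.86), *Fgfbp1*, a carrier of fibroblast growth factors (-0.53 and 0.92), and *Pld5*, of the phospholipase D family (-0.63 and 0.76). *Aurka*, a kinase of mitosis, and *Lclat1*, an acyltransferase that acts on cardiolipin, completed the 12 genes and were named after their values were seen. They changed by -0.50 and 0.63 (*Aurka*) and by -0.42 and 0.50 (*Lclat1*) in diaphragm and gastrocnemius. In *Map2k6*, *Ctnna3*, *Fgfbp1* and *Pld5* the KO diaphragm arrays lay below and the KO gastrocnemius arrays above all others. Without the arrays labelled WT diaphragm the gastrocnemius calls of *Fgfbp1* and *Pld5* were lost (adjusted p = 0.0691 and 0.0536, limma). After quantile normalization *Map2k6* and *Lclat1* were called in diaphragm only and *Fgfbp1* in gastrocnemius only.

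Only 3 genes went the other way, and none of them was still called in gastrocnemius without the arrays labelled WT diaphragm (adjusted p = 0.0586 for each, limma). *Serpina3n*, a protease inhibitor with close relatives in its cluster, had signals of 6.52, 7.41 and 6.76 in KO diaphragm and 5.96, 6.05 and 6.19 on the arrays labelled WT diaphragm. In gastrocnemius it had 5.86, 5.88 and 5.94 in KO mice and 7.19, 7.17 and 6.52 in WT mice, and the interaction was 1.90 (SE 0.28, adjusted p = 0.000453). The ranges of KO diaphragm and WT gastrocnemius overlapped. *Runx1*, a transcription factor that muscle makes after denervation, had signals of 6.88, 7.08 and 6.88 in KO diaphragm and 6.50, 6.64 and 6.59 on the arrays labelled WT diaphragm, with 6.13, 6.03 and 6.11 in KO gastrocnemius and 6.64, 6.69 and 6.42 in WT gastrocnemius. The WT arrays of both muscles shared a range, with KO above it in diaphragm and below it in gastrocnemius (interaction 0.86, SE 0.14, adjusted p = 0.000689). After quantile normalization neither muscle was called for *Runx1*. The small nucleolar RNA *Snord15b* changed by 0.81 in diaphragm and by -0.71 in gastrocnemius, and the arrays labelled WT diaphragm were its lowest group.

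**Figure D3:**
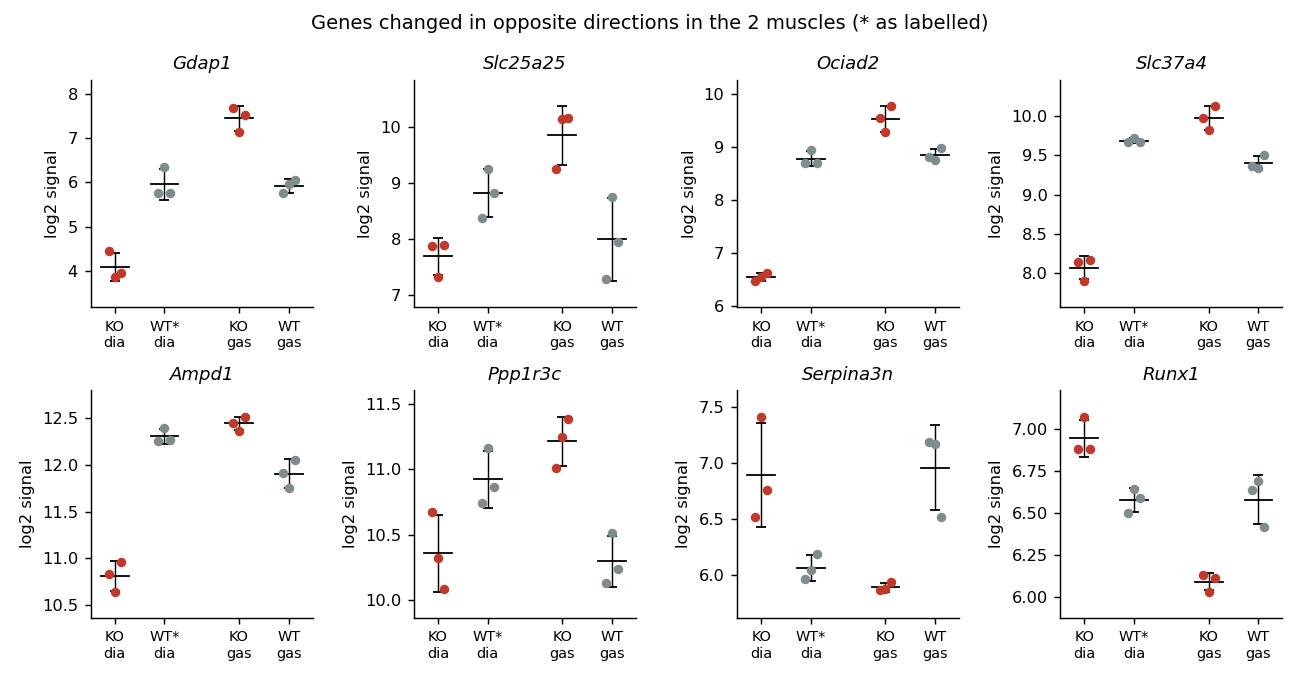
Log2 signal (vertical axes) of 8 of the 15 genes changed in opposite directions on the 3 arrays of each group (horizontal axes: KO diaphragm, arrays labelled WT diaphragm, marked with an asterisk, KO gastrocnemius, WT gastrocnemius); dots stand for arrays, lines for means and whiskers for SD. *Gdap1* and *Runx1* show WT arrays of both muscles together with the KO groups on either side, whereas *Ampd1* and *Slc37a4* are set apart mostly by the KO diaphragm arrays.

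Promoter windows of 300 bases around a transcript start, most of them upstream, were taken from RefSeq (GRCm38.p6) for 12 of the 15 genes, in 21 windows. The cAMP response element TGACGTCA was in 1 of the 21, in *Slc25a25*, against 1.79% of all 32851 windows, and its core TGACG was in 4, against 20.8%, both strands being searched. The E-box CACGTG was in 2 windows (7.15% of all windows), the D-box TTATGTAA in 1 (0.938%), the glucocorticoid motif AGAACA in 6 (19%) and the CArG box in 1 (1.63%). These matches are a description and no site of binding. A TGACGTCA holds TGACG on both strands, so these matches overlap. Windows are shown for *Slc25a25* and *Ppp1r3c*, which changed in opposite directions, and for *Nr4a1* and *Nr4a3*, the immediate-early genes with a called interaction. Each was chosen because its window holds one of the motifs searched. Capitals mark TGACG or its reverse complement, CGTCA, and the E-box. The *Slc25a25* window (chr2:32424017-32424316, minus strand) is 1 of 3 of that gene and holds the full cAMP response element, the *Ppp1r3c* window (chr19:36736555-36736854, minus strand) an E-box, and the *Nr4a1* (chr15:101266596-101266895, plus strand) and *Nr4a3* (chr4:48045055-48045354, plus strand) windows 4 core sites each.
Slc25a25: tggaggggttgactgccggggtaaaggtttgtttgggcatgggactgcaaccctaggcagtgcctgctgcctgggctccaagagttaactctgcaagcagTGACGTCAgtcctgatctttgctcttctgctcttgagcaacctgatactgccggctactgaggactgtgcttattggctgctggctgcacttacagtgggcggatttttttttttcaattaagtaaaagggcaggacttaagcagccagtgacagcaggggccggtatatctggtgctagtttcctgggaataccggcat
Ppp1r3c: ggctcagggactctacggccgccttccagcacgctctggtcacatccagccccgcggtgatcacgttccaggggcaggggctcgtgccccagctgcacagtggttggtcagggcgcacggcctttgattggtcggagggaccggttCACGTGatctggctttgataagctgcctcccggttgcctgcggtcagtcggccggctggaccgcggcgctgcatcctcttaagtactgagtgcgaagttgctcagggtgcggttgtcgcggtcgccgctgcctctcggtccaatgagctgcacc
Nr4a1: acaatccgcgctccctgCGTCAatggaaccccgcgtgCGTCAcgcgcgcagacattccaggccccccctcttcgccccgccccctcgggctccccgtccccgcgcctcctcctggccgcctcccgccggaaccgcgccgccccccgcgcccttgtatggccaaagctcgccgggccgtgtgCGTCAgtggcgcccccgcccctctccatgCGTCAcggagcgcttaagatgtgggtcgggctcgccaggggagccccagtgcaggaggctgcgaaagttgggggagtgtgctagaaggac
Nr4a3: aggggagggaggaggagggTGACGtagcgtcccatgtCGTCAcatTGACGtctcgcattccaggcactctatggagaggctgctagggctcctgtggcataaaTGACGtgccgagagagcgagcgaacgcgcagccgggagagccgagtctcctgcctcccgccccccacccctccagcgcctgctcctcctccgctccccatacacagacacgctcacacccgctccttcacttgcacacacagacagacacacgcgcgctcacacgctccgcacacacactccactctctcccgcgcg

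A looser reading of opposite changes took genes with a called interaction, an unadjusted p under 0.05 in each muscle and differing signs. It held 459 genes (2.30% of genes, 15.5% of the interaction genes), of which 199 were higher and 260 lower in KO diaphragm. For 361 the KO and WT arrays overlapped in neither muscle, but the genes were chosen on these same arrays, so this count tests nothing. The share of all genes with such arrays was not counted. Among the lists, 4 of 13 macrophage markers were in this set. The other lists held 2 or fewer.

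The gastrocnemius was the only muscle called for 33 genes, 22 with a lower and 11 with a higher interaction. All 33 had KO arrays that did not overlap the WT arrays in gastrocnemius, which were also the arrays that made the calls. This tests nothing, and the share of all genes without overlap was not counted. *Plpp4*, a phospholipid phosphatase, had signals of 5.81, 5.91 and 6.36 in KO diaphragm and 6.11, 5.88 and 5.80 on the arrays labelled WT diaphragm. In gastrocnemius its signals were 7.35, 7.27 and 7.50 in KO mice and 5.92, 5.90 and 5.53 in WT mice. KO gastrocnemius stood above the other 9 arrays, the change was 0.10 in diaphragm and 1.59 in gastrocnemius, and the interaction was -1.49 (SE 0.21, adjusted p = 0.000241). *Ehd3*, of endocytic recycling, had the same form, with a change of 0.06 in diaphragm and 1.17 in gastrocnemius.

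*Tfrc*, the transferrin receptor that takes up iron, had a different form. It had signals of 10.53, 10.10 and 10.62 in KO diaphragm and 10.37, 10.38 and 10.52 on the arrays labelled WT diaphragm, with 10.29, 10.26 and 10.53 in KO gastrocnemius and 9.07, 9.26 and 9.05 in WT gastrocnemius. Here the WT gastrocnemius arrays lay below the other 9, and the KO gastrocnemius range overlapped those of both diaphragm groups (interaction -1.24, SE 0.18, adjusted p = 0.000391). WT gastrocnemius was also the low group for *Ppp1r11*, an inhibitor of protein phosphatase 1, with a change of 0.86 in gastrocnemius.

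*Ddit4*, an inhibitor of mTORC1 that glucocorticoids and stress induce, had signals of 7.11, 6.65 and 6.75 in KO diaphragm and 7.63, 7.31 and 7.14 on the arrays labelled WT diaphragm, a change of -0.52 that was not called (95% interval -1.11 to 0.06, adjusted p = 0.173). In gastrocnemius the signals were 8.19, 9.26 and 9.09 in KO mice and 6.93, 7.82 and 6.86 in WT mice, with KO above all other arrays. With an interaction of -2.16 (SE 0.39, adjusted p = 0.00156), it is not among the 29 genes whose change in diaphragm was bounded. The strongest decreases in gastrocnemius were those of *Acot2*, a mitochondrial acyl-CoA thioesterase (-0.91, adjusted p = 0.0485), *Hbq1b*, a globin of the alpha family (-0.76), *Galnt15*, a glycosyltransferase (-0.71), *Myo7a*, an unconventional myosin (-0.68), and *S100a4*, a calcium-binding protein (-0.59). In *Acot2*, *Galnt15* and *Myo7a* KO gastrocnemius was the group apart, whereas in *S100a4* it was WT gastrocnemius. *Acot2* and *Galnt15* were not among the 29 bounded genes either. *Galnt15* changed by 0.35 in diaphragm (95% interval 0.05 to 0.65, adjusted p = 0.0803, limma) and is in the looser set of opposite changes.

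These calls also rested on few arrays. The class held 10, 12 and 11 genes without KO gastrocnemius replicates 1, 2 and 3, and 10 and 20 genes without WT gastrocnemius replicates 1 and 3. With the arrays labelled WT diaphragm left out of the fit, 20 of the 33 were still called in gastrocnemius. Of the 33, 24 stayed in the class after median centring and 18 after quantile normalization. The interactions of *Myo7a* and *S100a4* were called under neither scaling.

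Genes that changed the same way in both muscles but by unequal amounts numbered 6. *Nnt* encodes the mitochondrial transhydrogenase that makes NADPH, and part of this gene is deleted in the C57BL/6J substrain. It had signals of 11.86, 11.67 and 11.92 in KO diaphragm and 8.34, 8.04 and 8.73 on the arrays labelled WT diaphragm. It had 10.12, 10.42 and 10.07 in KO gastrocnemius and 8.10, 8.47 and 8.30 in WT gastrocnemius. The WT groups overlapped, KO was higher in both muscles, and the change was 3.45 in diaphragm and 1.91 in gastrocnemius (interaction 1.53, SE 0.22, adjusted p = 0.000345). The *Nnt* allele of the KO line is not given in the sources used here, so that strain and deletion cannot be told apart for this gene.

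*Lrtm1*, a gene of a leucine-rich membrane protein, was also higher in both, by 2.35 in diaphragm and 0.89 in gastrocnemius (interaction 1.47, adjusted p = 0.000212). Lower in both, and more so in diaphragm, were *Tpbgl* (-2.16 in diaphragm and -1.07 in gastrocnemius), *Slc7a2*, a transporter of arginine and lysine (-1.59 and -0.80), *Arhgef17* (-1.36 and -0.60), and *Cacng7*, of the calcium channel gamma family (-1.39 and -0.93). *Tpbgl* had signals of 7.28, 7.32 and 7.38 in KO diaphragm and 9.54, 9.40 and 9.52 on the arrays labelled WT diaphragm, with 8.69, 8.61 and 8.50 in KO gastrocnemius and 9.83, 9.59 and 9.59 in WT gastrocnemius. The 4 groups of *Tpbgl* fell in 3 levels, with the WT arrays highest, KO gastrocnemius below them and KO diaphragm lowest. Without KO gastrocnemius replicate 1 or 2 the class held 3 genes.

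**Figure D4:**
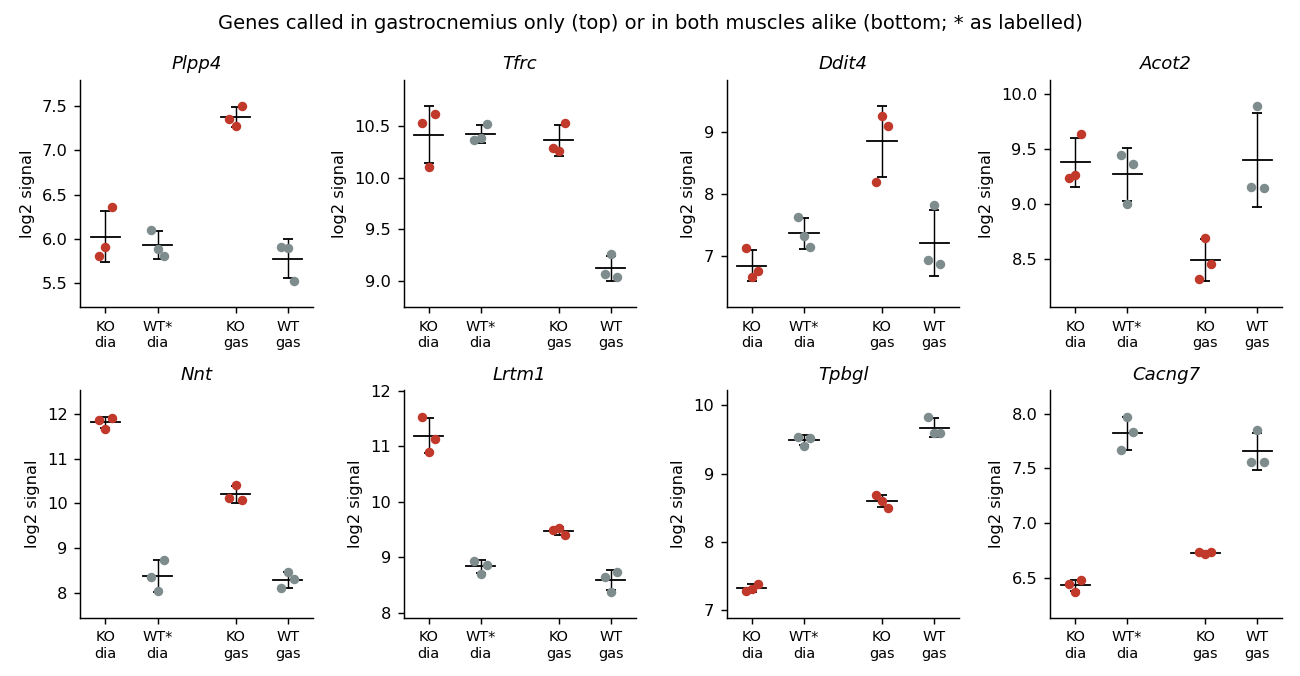
Log2 signal (vertical axes) of 4 genes called in gastrocnemius only (top) and 4 called in both muscles in the same direction (bottom) on the 3 arrays of each group (horizontal axes: KO diaphragm, arrays labelled WT diaphragm, marked with an asterisk, KO gastrocnemius, WT gastrocnemius); dots stand for arrays, lines for means and whiskers for SD. For *Tfrc* the WT gastrocnemius arrays are the low group, and for *Nnt* KO is above WT in both muscles, by more in diaphragm.

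With neither muscle passing on its own, the lowest interactions were those of *Arrdc2*, an arrestin-domain gene (-2.41, SE 0.63, adjusted p = 0.0177), *Gadd45g*, a stress sensor (-2.30, adjusted p = 0.0101), and *Cebpd*, a transcription factor of the acute response (-1.29, adjusted p = 0.0195). *Gadd45g* had signals of 9.27, 8.66 and 8.90 in KO diaphragm and 10.63, 9.26 and 8.92 on the arrays labelled WT diaphragm, with 10.37, 10.14 and 10.13 in KO gastrocnemius and 8.28, 9.44 and 8.01 in WT gastrocnemius. Its groups overlapped in diaphragm and not in gastrocnemius. The highest were *Lyz1*, a lysozyme with a near-identical relative (1.13), *Cpz*, a carboxypeptidase (1.11), and the chemokine *Ccl9* (1.04), and in all 3 KO gastrocnemius stood below the other 9 arrays. The class held 159 and 140 genes without KO gastrocnemius replicates 1 and 3 and 150 without WT gastrocnemius replicate 1.

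Among the 2663 genes called in diaphragm only, the lowest interactions included those of the fast fiber genes *Myh4* and *Actn3* and of *Hoxc10* (-4.59). *Myh4*, the myosin heavy chain of IIB fibers, had signals of 8.99, 9.15 and 8.74 in KO diaphragm, against 13.60, 13.50 and 13.59 on the arrays labelled WT diaphragm. Its signals in gastrocnemius were 13.63, 13.69 and 13.60 in KO mice and 13.62, 13.66 and 13.63 in WT mice. The 9 arrays other than KO diaphragm lay close together, and the interaction was -4.61 (SE 0.14, adjusted p = 1.93e-10). *Actn3*, the alpha-actinin of fast fibers, had an interaction of -4.43, with KO diaphragm signals of 8.14, 9.20 and 9.59 and 13.45, 13.34 and 13.42 on the arrays labelled WT diaphragm. *Mss51*, a gene of mitochondrial regulation in muscle, had the lowest value of the genes named, -4.74, but with a SE of 0.90, since the arrays labelled WT diaphragm were at 8.47, 11.78 and 8.45, with replicate 2 far above the others. Also low were *Smox*, spermine oxidase (-4.58), *Slc16a3*, which exports lactate (-4.19), *Odf3l2* (-4.05), *Mettl21c*, a methyltransferase of muscle (-4.05), *Slc38a4*, an amino acid transporter (-3.88), and *Atp1b2*, a subunit of the sodium pump (-3.61). In bulk muscle, fewer fibers of a type and less RNA per fiber cannot be told apart. Nor can a difference between muscles be told apart here from an effect of the deletion.

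Of all genes, 8.76% had a called higher interaction, 6.07% a lower one and 14.8% either, the shares beside which the list counts below stand. By list, 10 of 15 fast fiber genes had a lower interaction and 1 a higher one, with a median of -0.86, against a median of -0.00197 for all genes. In gastrocnemius none of the 15 was called, but only 0.592% of all genes were called there. *Pvalb*, the calcium buffer of fast fibers (-2.61), and *Mylk2*, the myosin kinase of skeletal muscle (-2.25), were among the 10. Of 15 genes of slow and oxidative fibers 9 had a higher interaction and none a lower one (median 1.15). *Casq2*, the slow calsequestrin, had signals of 10.83, 10.44 and 10.83 in KO diaphragm and 7.70, 7.34 and 7.88 on the arrays labelled WT diaphragm, with 7.94, 8.22 and 8.31 in KO gastrocnemius and 7.34, 7.57 and 7.69 in WT gastrocnemius. All 3 KO diaphragm arrays stood above the other 9, and the interaction was 2.44 (SE 0.22, adjusted p = 5.57e-06). *Atp2a2*, the slow calcium pump (2.01), *Tnnt1*, slow troponin T (1.86), and *Myh7*, slow myosin (1.65), followed.

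Genes of excitation and calcium release had 15 lower and 1 higher interactions of 21 measured (median -0.76). *Cacng1*, a subunit of the calcium channel of the T-tubule (-2.64), *Camk2a* (-1.84) and *Jph1*, a junctophilin (-1.48), were lower. The higher one was *Sln*, sarcolipin, an inhibitor of the calcium pump (2.07), which had signals of 7.13, 6.64 and 7.20 in KO diaphragm and 4.81, 5.22 and 5.29 on the arrays labelled WT diaphragm.

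Of 19 genes of glycolysis and glycogen 14 had a lower interaction and 2 a higher one (median -0.69). Among the 14 were subunits of phosphorylase kinase, which starts the breakdown of glycogen, with *Phka1* at -2.24, *Phkb* at -2.05 and *Phkg1* at -1.81. *Phka1* had signals of 9.79, 9.80 and 9.56 in KO diaphragm, against 12.03, 11.98 and 11.84 on the arrays labelled WT diaphragm. The KO gastrocnemius arrays were at 11.73, 11.74 and 11.79 and the WT gastrocnemius arrays at 11.59, 11.90 and 11.74, and the ranges of these 2 groups overlapped. Genes of fatty acid uptake and oxidation had 18 higher interactions of 20 and none lower (median 0.97). *Lpl*, lipoprotein lipase (1.41), *Fabp3*, the fatty acid binding protein of heart and muscle (1.20), *Eci1* (1.12) and *Acadl* (1.11), both enzymes of beta oxidation, were among them. *Lpl* had signals of 12.52, 12.53 and 12.59 in KO diaphragm, 11.41, 11.31 and 11.58 on the arrays labelled WT diaphragm, 10.98, 11.29 and 10.72 in KO gastrocnemius and 11.31, 11.33 and 11.25 in WT gastrocnemius.

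Most genes of the respiratory chain and citric acid cycle were called in diaphragm without a called interaction. Of 69 subunits of the respiratory chain 50 were called higher for KO in diaphragm, yet the interaction was higher for 5 and lower for 1, or 8.70% against 14.8% of all genes. The median interaction was 0.23, with a median change of 0.40 in diaphragm and 0.20 in gastrocnemius, where none was called (0.592% of all genes were). The count moved with scaling, with 1 higher and 1 lower after median centring and 10 higher and none lower after quantile normalization. *Atp5g3* (0.54, adjusted p = 0.0166) and *Atp5g1* (0.56, adjusted p = 0.0489), which encode the same subunit of ATP synthase, were among the 5. The citric acid cycle and pyruvate dehydrogenase had 5 higher interactions of 19, or 26.3% (median 0.34), and 2 after median centring, while 18 were higher in diaphragm. *Idh2*, the mitochondrial NADP-linked isocitrate dehydrogenase, had signals of 12.21, 12.21 and 12.39 in KO diaphragm and 10.64, 10.23 and 10.89 on the arrays labelled WT diaphragm, with 10.72, 10.99 and 10.58 in KO gastrocnemius and 10.51, 10.71 and 10.70 in WT gastrocnemius. Its interaction was 1.56 (SE 0.21, adjusted p = 0.000203), above those of *Dld* (0.68), *Sdha* (0.54) and *Pdha1* (0.41).

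Antioxidant enzymes had 7 higher and 1 lower interactions of 20, with a median of 0.12 that became -0.02 after median centring. The count was 5 higher and 2 lower after this centring. *Cat*, catalase (0.93), and *Prdx2* (0.74) were higher, *Prdx4*, a peroxiredoxin of the endoplasmic reticulum, was higher as well (0.90), and *Gclm*, which helps to make glutathione, was lower (-0.76, adjusted p = 0.0104). Mitochondrial carriers and uncoupling proteins had 4 higher and 4 lower of 20, and 2 higher and 4 lower after median centring. *Slc25a34* (2.37) and *Slc25a13*, the aspartate and glutamate carrier (1.72), were higher. *Ucp3*, the uncoupling protein of muscle, was lower, with signals of 7.95, 7.41 and 8.76 in KO diaphragm, 10.49, 10.22 and 10.14 on the arrays labelled WT diaphragm, 8.79, 9.56 and 9.77 in KO gastrocnemius and 8.67, 9.48 and 8.92 in WT gastrocnemius. For *Ucp3* the arrays labelled WT diaphragm stood above the other 9, including those of gastrocnemius (interaction -2.59, SE 0.43, adjusted p = 0.000934).

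The arrays labelled WT diaphragm stood apart from the other 9, as for *Ucp3*, in 242 interaction genes. *Odc1*, which makes putrescine, had signals of 8.94, 9.05 and 9.04 in KO diaphragm, 11.16, 11.20 and 11.24 on the arrays labelled WT diaphragm, 10.55, 10.43 and 10.76 in KO gastrocnemius and 10.12, 10.79 and 10.19 in WT gastrocnemius. KO diaphragm was the lowest group and the arrays labelled WT diaphragm the highest. *Gpt2*, the mitochondrial alanine aminotransferase (-2.77), *Musk*, the kinase of the neuromuscular junction (-1.90), and *Irs1*, of insulin signalling (-0.83), had the arrays labelled WT diaphragm above all others. *Cfb*, of the complement system (3.09), and *Ly86*, of innate immunity (2.68), had them below.

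KO gastrocnemius stood apart for 328 genes, *Gdap1* and *Ociad2* among them. *Prkag3*, the AMPK subunit of glycolytic muscle, had signals of 6.78, 6.21 and 6.50 in KO diaphragm and 9.02, 9.42 and 9.14 on the arrays labelled WT diaphragm, with 9.84, 9.74 and 9.94 in KO gastrocnemius and 9.25, 9.14 and 9.58 in WT gastrocnemius. *Odf3l2* had signals of 5.15, 5.37 and 5.0 in KO diaphragm and 7.23, 8.82 and 7.57 on the arrays labelled WT diaphragm, with 8.82, 9.04 and 9.25 in KO gastrocnemius and 7.47, 8.10 and 7.48 in WT gastrocnemius. In both genes KO gastrocnemius was the highest group, although the change in gastrocnemius did not pass the test (adjusted p = 0.0637 for *Odf3l2* and 0.128 for *Prkag3*, limma). For *Odf3l2* this rests on a near tie, 8.8184 in the lowest KO gastrocnemius array against 8.8168 in the highest array labelled WT diaphragm. The interaction of *Prkag3* was -3.22 (SE 0.22, adjusted p = 4.13e-07). WT gastrocnemius stood apart for 69 genes, among them *Cntfr*, a receptor of ciliary neurotrophic factor, as the lowest group, and *Tspan8*, a tetraspanin, as the highest.

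AMPK and glucose uptake genes had 4 lower and 1 higher interactions of 17, or 29.4% called against 14.8% of all genes (median -0.09). After quantile normalization 3 were higher. Another AMPK subunit gene, *Prkab2*, was lower (-2.49), while *Tbc1d4*, which controls the movement of the glucose transporter, was higher (1.65). Polyamine genes had 2 lower (*Smox* and *Odc1*) and 1 higher (*Sat1*, 0.66) of 8, or 37.5% called. *Sat1* was not called after median centring, and lost its call under 7 of 20 alternatives in all. Of 23 regulators of fiber type and mitochondria 5 were lower and 2 higher, or 30.4% called. *Eya4* (-3.01), *Maf* (-2.01) and *Sox6*, which represses slow genes (-1.33), were lower, and *Prox1*, a factor of slow fibers (1.16), was higher.

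Immediate-early genes, which are switched on within minutes of a stimulus, had the highest median change in gastrocnemius of the 35 lists. Their median change was 0.19 in diaphragm and 0.56 in gastrocnemius, with 11 of 26 higher and 2 lower in diaphragm (16.3% and 11.2% of all genes) and 6 higher in gastrocnemius (0.406% of all genes). The interaction was lower for 2 of the 26, or 7.69%, below the 14.8% of all genes. *Nr4a1*, a nuclear receptor, had signals of 10.28, 9.83 and 10.77 in KO diaphragm and 10.72, 11.37 and 10.78 on the arrays labelled WT diaphragm, with 11.34, 11.80 and 11.62 in KO gastrocnemius and 10.54, 10.58 and 10.81 in WT gastrocnemius. Its interaction was -1.61 (SE 0.30, adjusted p = 0.00215). *Nr4a3*, its relative, had signals of 7.66, 6.88 and 6.65 in KO diaphragm and 9.54, 7.49 and 8.06 on the arrays labelled WT diaphragm, with 6.91, 7.49 and 7.78 in KO gastrocnemius and 6.18, 6.19 and 5.38 in WT gastrocnemius (interaction -2.77, SE 0.59, adjusted p = 0.0054). WT gastrocnemius was the lowest group for *Nr4a3*, and neither gene passed on its own in gastrocnemius (adjusted p = 0.064 and 0.117).

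Circadian clock genes had 4 lower interactions of 17 and none higher, or 23.5% called against 14.8% of all genes (median -0.43). The 4 were *Rora* (-1.43), *Bhlhe41* (-1.27), *Nfil3* (-1.05) and *Tef* (-0.86). *Nfil3* lost its call under 10 of 20 alternatives. *Bhlhe41* had signals of 7.67, 7.55 and 7.50 in KO diaphragm, 8.92, 8.83 and 8.86 on the arrays labelled WT diaphragm, 9.59, 9.54 and 9.76 in KO gastrocnemius and 9.71, 9.75 and 9.52 in WT gastrocnemius, so that the arrays labelled WT diaphragm lay between. Glucocorticoid and atrophy genes had 8 lower of 21 (median -0.51), among them *Mstn*, myostatin (-2.77), *Tsc22d3* (-1.48) and *Sgk1* (-1.33), besides *Ddit4*. The time of day at which muscles were taken is not given in the sources used here. Stress genes were mixed. Of 21 genes of the integrated stress response 4 were higher, such as *Asns* (1.23) and *Nupr1* (0.89), and 2 lower, such as *Chac1* (-1.38). Heat shock genes had 1 higher (*Hspa9*, the mitochondrial chaperone, 0.42) and 1 lower (*Hspa1l*, -0.75) of 19, and proteasome subunits 4 lower of 31, from *Psmd8* at -0.64 to *Psmd1* at -0.48. The shares called, 10.5% of heat shock genes and 12.9% of proteasome subunits, were below the 14.8% of all genes. After median centring no heat shock gene was higher and 8 proteasome subunits were lower, and after quantile normalization 3 heat shock genes were higher.

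Neuromuscular junction genes had 5 higher and 3 lower interactions of 15, and 2 higher after median centring or quantile normalization. *Colq*, which anchors acetylcholinesterase, was higher (0.91) and *Chrne*, the adult receptor subunit, lower (-0.83). Of 15 myogenic genes *Pax3* (1.41) and *Vcam1* (1.10) were higher and *Myf6* (-1.15) and *Myog* (-1.06) lower, or 26.7% called, with 7 lower after median centring. *Pax3*, a factor of muscle precursors, had signals of 6.78, 6.58 and 7.22 in KO diaphragm and 5.50, 5.64 and 5.63 on the arrays labelled WT diaphragm, with 5.53, 5.36 and 5.38 in KO gastrocnemius and 5.75, 5.64 and 5.31 in WT gastrocnemius, and KO diaphragm was the group apart. Imprinted growth genes had 4 higher, among them *Sgce* (1.01) and *Igf2* (0.58), and 1 lower, *Cdkn1c* (-0.54), of 16, or 31.2% called.

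Mesothelial markers were among the highest interactions. *Gpm6a*, a membrane glycoprotein that the mesothelium also makes, was highest of the genes named, with signals of 8.91, 9.59 and 9.33 in KO diaphragm and 4.85, 5.50 and 4.90 on the arrays labelled WT diaphragm. It had 5.22, 4.96 and 5.13 in KO gastrocnemius and 5.20, 5.23 and 5.43 in WT gastrocnemius, and an interaction of 4.38 (SE 0.25, adjusted p = 1.12e-07). *Upk3b*, a uroplakin of the mesothelium, had 8.82, 9.80 and 9.30 in KO diaphragm, 5.27, 5.51 and 5.44 on the arrays labelled WT diaphragm, 5.17, 5.30 and 5.0 in KO gastrocnemius and 5.50, 5.40 and 5.56 in WT gastrocnemius (interaction 4.23). Next came *Tecrl*, a gene of heart and skeletal muscle (4.21), *C4b*, of the complement system (4.12), *Upk1b* (4.09), *Pkhd1l1* (3.85), *Cxcl13*, the B cell chemokine (3.82), *Lrrn4* (3.59), *Mmrn1*, multimerin (3.37), and *Cybb*, of the phagocyte oxidase (3.13).

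All 12 mesothelial markers had a higher interaction (median 2.25), 11 of them after median centring and 11 after quantile normalization. Their mean log2 signal was 7.14 to 7.86 in KO diaphragm, 5.13 to 5.18 on the arrays labelled WT diaphragm, 5.01 to 5.06 in KO gastrocnemius and 5.13 to 5.36 in WT gastrocnemius. Macrophage markers had 12 higher of 13 (median 1.78), with a mean signal of 7.78 to 8.21 in KO diaphragm, 6.52 to 6.97 on the arrays labelled WT diaphragm, 6.52 to 6.70 in KO gastrocnemius and 6.81 to 7.07 in WT gastrocnemius. Examples are *Lyz2* (2.97), *Adgre1* (2.33), *Mpeg1* (2.05) and *C1qb* (1.90). For macrophages the KO minus WT estimate in gastrocnemius was negative, with a list median of -0.33, and no member was called there (0.592% of all genes were). B and plasma cell markers had 9 higher of 12 (median 1.34), such as *Ms4a1* (2.37) and *Cd79b* (1.65), with a mean signal of 5.23 to 6.44 in KO diaphragm, 4.50 to 4.56 on the arrays labelled WT diaphragm, 4.36 to 4.48 in KO gastrocnemius and 4.35 to 4.58 in WT gastrocnemius. Genes of antigen presentation had 5 higher of 8, with *H2-Ab1* at 2.35 and *Cd74* at 1.98. None of these lists had a member with a lower interaction.

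Endothelial markers had 8 higher of 13 (median 0.59), for example *Kdr*, a receptor of VEGF (1.19), and *Aplnr* (1.33), and their mean signal was 8.75 to 8.96 in KO diaphragm, 8.06 to 8.26 on the arrays labelled WT diaphragm, 8.0 to 8.10 in KO gastrocnemius and 7.98 to 8.10 in WT gastrocnemius. Adipocyte markers had 8 higher and 1 lower of 11 (median 1.40), led by *Adipoq*, adiponectin, at 7.69, 9.15 and 6.83 in KO diaphragm and 5.95, 5.82 and 5.35 on the arrays labelled WT diaphragm (interaction 2.85, SE 0.59, adjusted p = 0.00424). *Adipoq* was highest in KO diaphragm replicate 2, and the KO diaphragm range overlapped that of WT gastrocnemius (7.20, 6.57 and 6.39). The mean signal of the 11 markers was 7.87 to 9.30 in KO diaphragm, 7.46 to 7.68 on the arrays labelled WT diaphragm, 7.39 to 7.72 in KO gastrocnemius and 7.82 to 8.24 in WT gastrocnemius. Interferon response genes had 9 higher of 19 and none lower (median 1.56), with *Oasl2* at 2.51 and *Rtp4* at 2.45. *Oasl2* had signals of 7.19, 7.88 and 9.13 in KO diaphragm and 6.26, 6.06 and 5.88 on the arrays labelled WT diaphragm, with 6.11, 6.0 and 5.82 in KO gastrocnemius and 6.20, 5.91 and 7.35 in WT gastrocnemius. WT gastrocnemius replicate 3 was high, within the range of the KO diaphragm arrays, which spread widely. The mean signal of the 19 genes was 6.11 to 7.71 in KO diaphragm, 5.57 to 5.67 on the arrays labelled WT diaphragm, 5.49 to 5.59 in KO gastrocnemius and 5.54 to 6.51 in WT gastrocnemius. Collagen and matrix genes had 8 higher of 25, such as *Col14a1* (2.40) and *Col3a1* (1.14).

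Smooth muscle markers had 2 lower of 10 (*Myh11*, -0.79, and *Tagln*, -0.75), or 20% called against 14.8% of all genes. There were 5 lower after median centring and 4 after quantile normalization. The arrays labelled WT diaphragm were the high group for *Myh11* and *Tagln*. Of the 9 Schwann cell and 8 tendon markers none was called in the interaction, with *Pmp22* at 0.67 (adjusted p = 0.238) and *Kera* at -0.78 (adjusted p = 0.521). Of 3 red blood cell genes *Alas2* was higher (1.41). Of 11 genes of cervical and forelimb position 4 were higher, *Hoxa5* most (1.46), while 9 of the 13 hindlimb genes were lower, such as *Hoxd8* (-3.11), *Hoxd10* (-1.77) and *Hoxc9* (-1.53). The part of other cell types in the interactions of muscle genes was not tested.

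**Figure D5:**
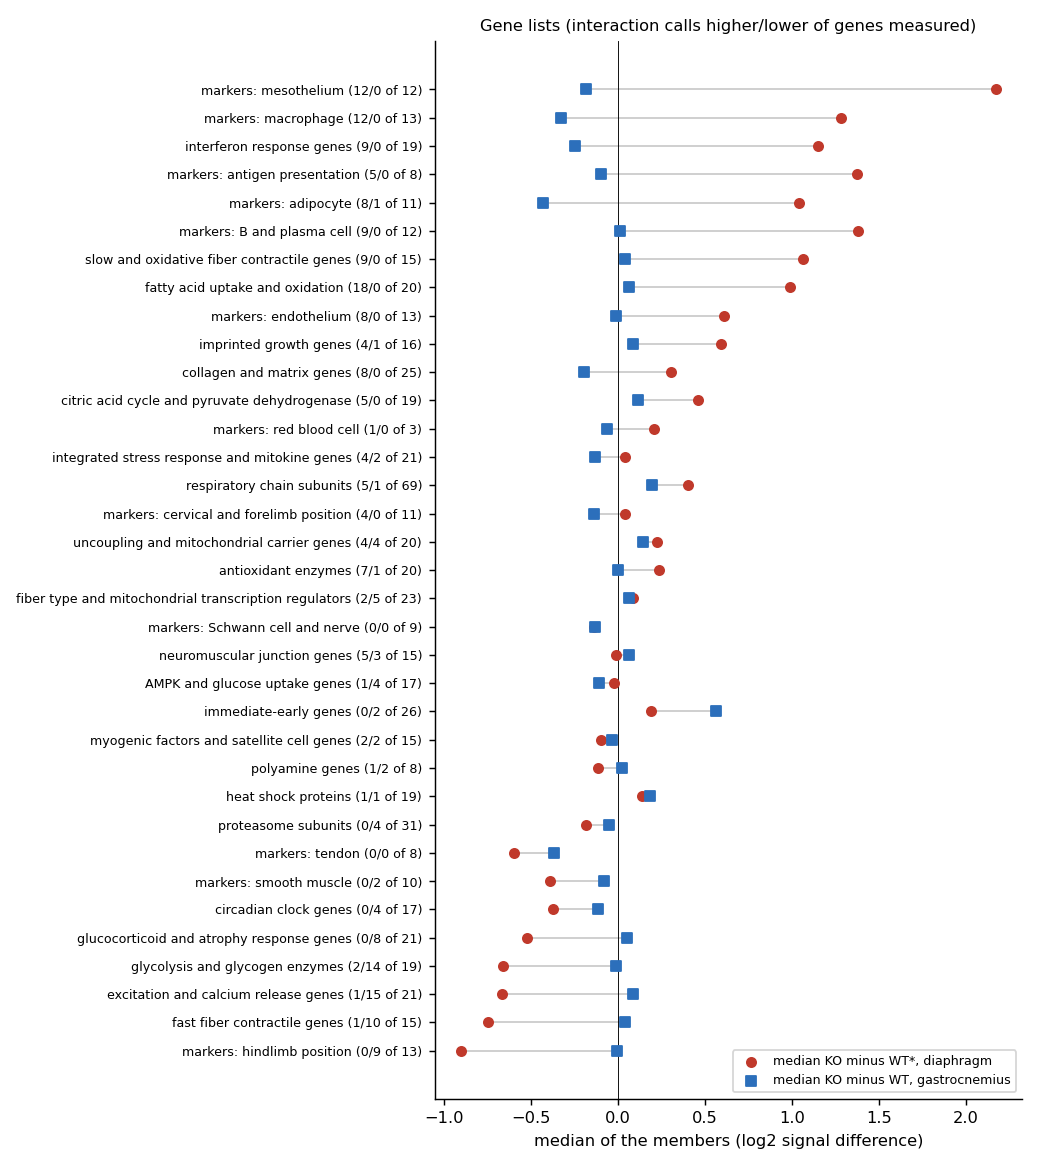
Median KO minus WT difference of each gene list (horizontal axis, log2 signal) in diaphragm (red circles, against the arrays labelled WT, marked with an asterisk) and gastrocnemius (blue squares), with lists ordered down the page by the median interaction; in brackets are the interaction calls, higher then lower, of the genes measured. The blue squares lie between -0.43 and 0.56, while the red circles run from -0.90 for hindlimb position to 2.17 for the mesothelium.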

How the data were processed

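RNA from diaphragm and gastrocnemius of *Cox6a2* KO and WT mice (100 ng of total RNA per array) was hybridised to Affymetrix Mouse Gene 1.0 ST arrays, 3 arrays for each of 4 groups. The deposited values are log2 signals that the authors obtained by RMA in Affymetrix Expression Console, whose version is not given in the sources used here. They were used without further scaling. Of 35556 probe sets 21789 had 1 gene symbol, 1621 had several and 12146 were not listed in the platform annotation. The brightest probe set by its mean over all arrays stood for a gene, and 999 genes had more than 1 (19938 genes).

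A linear model with 1 mean per group was fitted to all 12 arrays in limma 3.58.1 (R 4.3.3, statmod 1.5.0), with empirical Bayes moderation. Contrasts were tested with 2-sided moderated tests and Benjamini-Hochberg adjustment over all genes. A gene was called at an adjusted p under 0.05. Intervals are 95% intervals of the model. A group stood apart where its 3 arrays lay above or below the other 9. The replicates are described as biological, and p-values measure the spread between these samples. The number of arrays limits the precision (median SE of the interaction 0.16).

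Genes named are the 10 highest and 10 lowest interactions, up to 10 of each orientation of the opposite class, 5 highest and 5 lowest of the gastrocnemius class, 4 of each sign of the same-direction class, 3 of each sign where neither muscle was called, up to 4 for each group standing apart and up to 4 called members of each list. Predicted genes and those with accession-like names were skipped, so that ranks hold among the genes left. The members and lists were chosen with earlier results of these data known. Alternatives were another scaling, moderation, filter, probe set rule or threshold, a replicate block, each muscle fitted alone and each array left out. Leaving out the arrays labelled WT diaphragm was an alternative chosen after seeing the data. The test was also run on simulated data.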

Additional observations from a re-analysis of the deposited data

Results flagged for a closer look

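The change between KO and WT differed between diaphragm and gastrocnemius, by a test of the difference itself, for 2958 genes. Among them were the 15 genes called in both muscles with opposite signs. Their interactions were lower in diaphragm for *Gdap1* (-3.38), *Slc25a25* (-2.98), *Ociad2* (-2.91), *Slc37a4* (-2.19), *Ampd1* (-2.04), *Map2k6* (-1.62), *Ctnna3* (-1.51), *Ppp1r3c* (-1.48), *Fgfbp1* (-1.45), *Pld5* (-1.38), *Aurka* (-1.13) and *Lclat1* (-0.92). They were higher in diaphragm for *Serpina3n* (1.90), *Snord15b* (1.52) and *Runx1* (0.86). The calls of the interaction, their sizes and their directions rest on the arrays labelled WT diaphragm, whose *Hoxc10* signals lay with those of gastrocnemius. A difference between muscles and an effect of the deletion cannot be told apart by these labels. Groups of 3 arrays were too small to search for single outlying arrays.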

How the results depend on the processing

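No call of a named gene turned its direction under any alternative. Of 171 named genes called in the interaction, 126 kept the call under each of the 20 alternatives refitted per gene in which they were tested, and 45 lost it under at least 1. Lost most often were *Atp5g1* (14), *Plagl1* of the imprinted list (13), *Cacng7* and *Retn* of the adipocyte list (11 each), and *Nfil3* (10). *Hspa9*, *Myo7a*, *Psmd8* and *S100a4* lost it under 9, and *Ccl9*, *Fn1*, *Pdha1*, *Psat1*, *Sat1* and *Tagln* under 7. Not counted in this are the 42 genes whose interaction was 1 or less in size, which the larger threshold leaves out, and the 24 below the median signal, which that filter does not test. Asking for an interaction past 1 gave 891 genes by construction (599 higher and 292 lower), in classes of 3 (same direction), 860 (diaphragm only), 6 (gastrocnemius only) and 9 (neither), with KO diaphragm apart for 787. Median centring gave 2291 lower interactions, 40 genes of opposite direction, 10 of the same direction, 59 in gastrocnemius only and 454 with neither muscle called, and 217 genes were called in gastrocnemius. With each muscle fitted alone there were 9 genes of opposite direction, 16 in gastrocnemius only and 69 called in gastrocnemius. Without moderation there were 5 of opposite direction, 3 of the same direction, 11 in gastrocnemius only and 30 called in gastrocnemius. Among genes at or above the median signal 12 changed in the same direction. Without the arrays labelled WT diaphragm 77 genes were called in gastrocnemius, 69 of them also with all arrays. The cause of these moves was not tested. Leaving out 1 array in turn gave 2354 to 3014 interactions (1367 to 1885 higher, 932 to 1174 lower), 2 to 21 of opposite direction, 3 to 8 of the same direction, 2120 to 2712 in diaphragm only, 10 to 36 in gastrocnemius only, 140 to 262 with neither called and 1960 to 2576 with KO diaphragm apart. It gave 4303 to 5692 calls in diaphragm and 32 to 147 in gastrocnemius, where the count was 32, 40 and 35 without KO gastrocnemius replicates 1, 2 and 3 and 38 and 58 without WT gastrocnemius replicates 1 and 3. The replicate numbers are shared by the groups, but the 18 correlations of same-numbered deviations ran from -0.10 to 0.16 with 2 over 0.1, so that the numbers were not taken as pairs. A replicate block gave 2880 interactions as a fixed effect, 2735 of them shared with the fit without it, and 2803 as a random effect. Of the 15 genes of opposite direction 13 stayed in that class under the fixed block, 10 under quantile normalization, 6 with each muscle fitted alone, 1 without moderation and 2 to 15 with 1 array left out. The interaction cannot be computed without the arrays labelled WT diaphragm. With 3 arrays a group, a gene not called in gastrocnemius cannot be taken as unchanged.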
